A study of Mus musculus with 16 samples.

Results

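Hair follicle bulge stem cell genes were followed as a set of 10 named genes, Krt15, Cd34, Lgr5, Lgr6, Lhx2, Sox9, Nfatc1, Gli1, Tcf7l1 and Fgf18, out of 55359 gene IDs counted in whole dorsal skin. The genes were listed by symbol, with no measured value in the rule but with earlier results of these data known, and each symbol matched 1 Ensembl gene ID. All 10 passed the filter on low counts. They were measured by strand-specific sequencing of poly(A) RNA in 16 libraries from male mice aged 8 weeks whose skin was labelled telogen, the hair cycle's resting phase. The 4 groups held 4 libraries each: wild-type skin without UVB (WT control), wild-type skin after 3xUVB (WT UVB), skin of mice lacking both TNF receptor genes, labelled Tnfrsf1a/b KO, without UVB (KO control), and the same knockout after 3xUVB (KO UVB). The labels give no strain, UVB dose, interval after UVB or number of animals behind a library, so the p-values measure the spread between these libraries, part of which may be technical.

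The bulge is the part of the outer root sheath where the resting follicle keeps its stem cells, below the sebaceous gland. These cells stay quiet through telogen under BMP and FGF signals and under transcription factors such as Nfatc1 and Tcf7l1, and Wnt and hedgehog signals start the next hair. Krt15 and Cd34 are used to mark bulge cells, Lgr5 and Gli1 mark cells at the lower bulge and hair germ and at the bulge ends, and Lgr6 marks the isthmus above the bulge. Several of these genes are not confined to the bulge. Krt15 is also made by basal-layer keratinocytes. Cd34 is also made by endothelial cells, dermal fibroblasts and mast cells, and Sox9, Lhx2 and Lgr5 also by the growing follicle. In bulk tissue, fewer cells of a type and less RNA per cell cannot be told apart.

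After UVB, 3 of the 10 genes fell in WT skin (Krt15, Gli1 and Tcf7l1) and 7 of 10 in KO skin (Krt15, Lgr5, Lgr6, Lhx2, Nfatc1, Gli1 and Fgf18), where 8.60% and 15.1% of all genes tested were called lower. The WT count ran from 0 to 4 over its 17 alternatives. It was 0 to 2 on leaving out 1 library and 1 with the replicate block. The KO count was 5 to 9 over its alternatives. None of the 10 rose in either genotype. Krt15, a keratin of basal-layer and bulge keratinocytes, was 1.57-fold lower in WT and 2.64-fold lower in KO skin, the largest fall of the 10 in KO. Gli1, the hedgehog effector, was 1.60-fold and 1.74-fold lower. Before UVB no member passed the test between the genotypes. The 2 UVB effects were not shown to differ for any member by the test of the difference.

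Reads in genes numbered 15644375 to 23200649 a library. Tnfrsf1a was at 133 to 162 CPM (counts scaled to a common library size with TMM factors) in the 8 WT libraries and at 82.2 to 104.8 in the 8 KO libraries. Tnfrsf1b was at 33.6 to 69.6 CPM in WT and at 15.6 to 27.9 in KO libraries, so both targeted genes were lower in every KO library and neither was at 0. The labelled tissue was checked against basal keratinocyte genes (Krt5, Krt14 and 7 others), which summed to 3963 to 15304 CPM over all 16 libraries. The telogen label was checked against 22 genes of the growing (anagen) follicle, chiefly hair and inner root sheath keratins. They summed to 1311 to 3318 CPM in WT control, 123 to 360 in KO control, 47.2 to 223 in WT UVB and 33.4 to 61.1 in KO UVB libraries, with none of the 22 at 0 in all libraries of a group. Hair shaft and root sheath genes therefore stood far above the other groups in WT control skin, whatever the label, and that difference lies along both the UVB and the genotype comparison.

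Scaled to gene length, as CPM per kilobase of exon, the 10 genes spanned a wide range of levels. In WT control skin Krt15 was at 906 ± 200 CPM per kb (mean ± SD, n = 4) and Cd34 at 68.3 ± 9.56. Sox9 followed at 9.98 ± 1.69, Nfatc1 at 9.23 ± 0.756 and Tcf7l1 at 8.24 ± 0.644, transcription factors whose library ranges overlapped from one to the next. The lowest Tcf7l1 library lay above every library of the next gene. Lgr6 at 5.61 ± 1.32, Fgf18 at 4.87 ± 1.07, Lhx2 at 4.82 ± 1.03, Gli1 at 3.93 ± 0.876 and Lgr5 at 2.69 ± 0.792 CPM per kb also overlapped with the next in the order. Krt15 and Cd34 did not overlap with each other or with the gene below them in any of the 4 groups. In KO control skin Lgr6 stood at 8.04 ± 1.65 CPM per kb, with a library range of 5.77 to 9.68 that overlapped with those of Tcf7l1 above it and Sox9 below it. In KO UVB skin Lgr5 was lowest again at 1.42 ± 0.0666 CPM per kb, there without overlap with Gli1 at 1.85 ± 0.255.

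**Figure D1:**
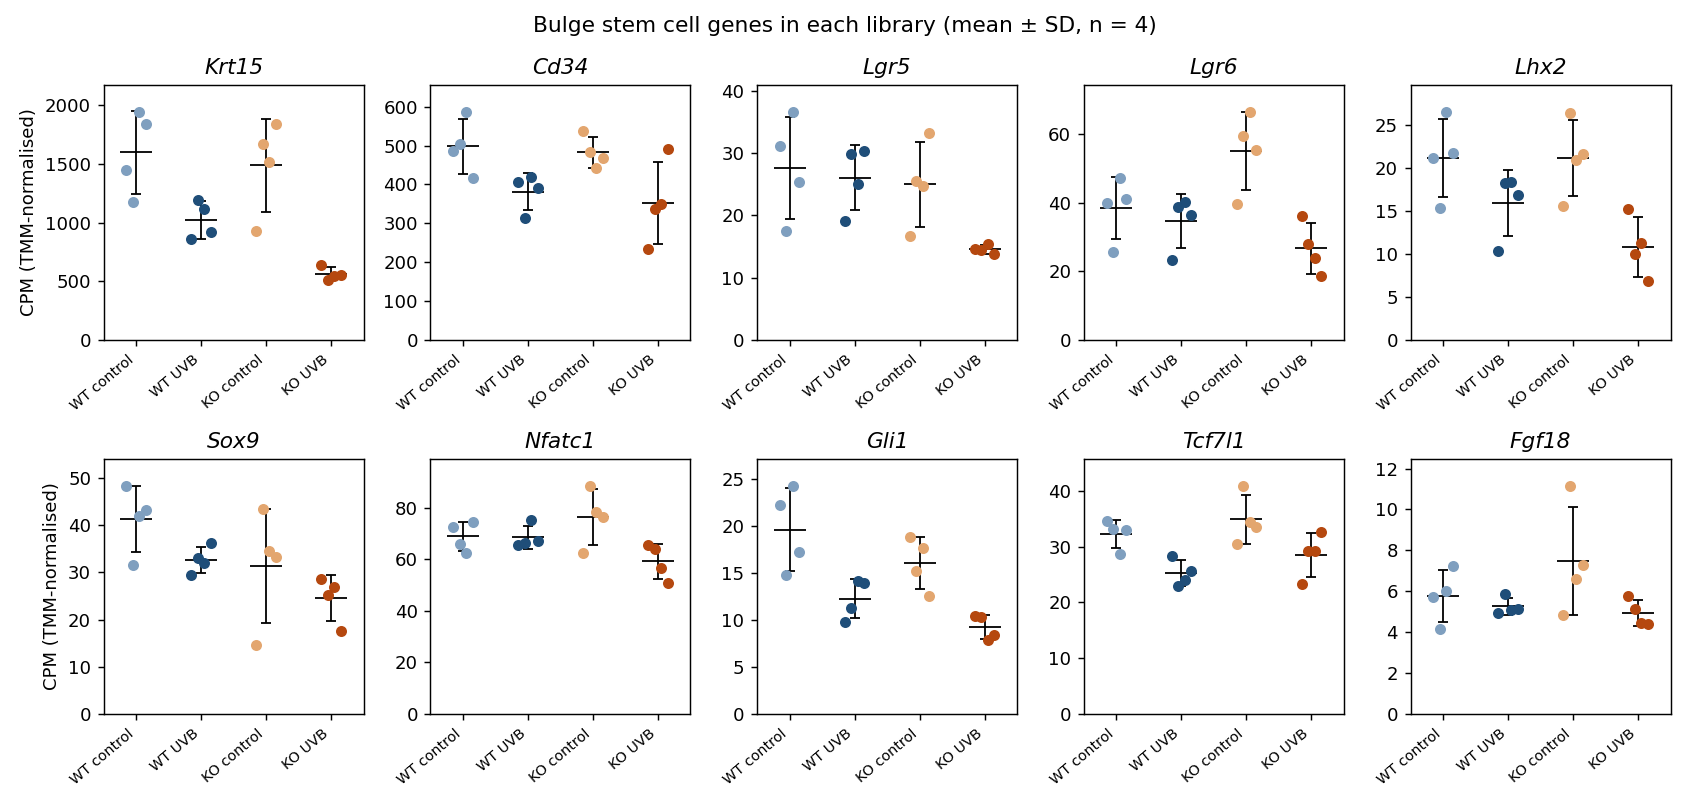
CPM (TMM-normalised) of each of the 10 genes in each library, with the group mean and SD (n = 4), on axes that start at 0. Krt15 ran from 513 to 640 CPM in KO UVB libraries and from 858 to 1939 in the other 12, and Lgr5 from 13.8 to 15.4 CPM in KO UVB and from 16.6 to 36.5 in the others.

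Promoter sequence was at hand for 5 of the 10 genes (6 transcription starts). The 250 bases before the start are shown for Lgr6 and Lhx2, the pair whose levels varied together most closely between libraries of a group, for Fgf18, which varied with Lhx2, and for Tcf7l1, which was not shown to. They are RefSeq sequences on build GRCm38.p6, not the build of the count files (GRCm39), written 5′ to 3′ on the gene's strand, with capitals where a searched motif matches. The coordinates are chr1:135105277-135105526, minus strand, for Lgr6, chr2:38339031-38339280, plus strand, for the first of 2 starts of Lhx2, chr11:33147401-33147650, minus strand, for Fgf18 and chr6:72789046-72789295, minus strand, for Tcf7l1.
Lgr6: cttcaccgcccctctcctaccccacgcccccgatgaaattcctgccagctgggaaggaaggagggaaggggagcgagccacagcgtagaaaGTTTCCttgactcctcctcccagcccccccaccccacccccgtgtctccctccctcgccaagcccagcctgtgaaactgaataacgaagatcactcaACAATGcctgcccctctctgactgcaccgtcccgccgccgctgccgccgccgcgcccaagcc
Lhx2: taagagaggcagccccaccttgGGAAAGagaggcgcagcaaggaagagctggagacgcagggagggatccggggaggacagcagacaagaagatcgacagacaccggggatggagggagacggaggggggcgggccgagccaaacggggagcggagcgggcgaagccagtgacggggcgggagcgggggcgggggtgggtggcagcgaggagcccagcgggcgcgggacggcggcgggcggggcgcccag
Fgf18: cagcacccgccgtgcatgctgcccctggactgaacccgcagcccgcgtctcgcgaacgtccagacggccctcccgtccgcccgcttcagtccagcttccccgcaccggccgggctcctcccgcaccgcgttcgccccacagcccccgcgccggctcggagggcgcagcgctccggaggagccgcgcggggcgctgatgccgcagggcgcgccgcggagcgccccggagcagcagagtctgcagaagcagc
Tcf7l1: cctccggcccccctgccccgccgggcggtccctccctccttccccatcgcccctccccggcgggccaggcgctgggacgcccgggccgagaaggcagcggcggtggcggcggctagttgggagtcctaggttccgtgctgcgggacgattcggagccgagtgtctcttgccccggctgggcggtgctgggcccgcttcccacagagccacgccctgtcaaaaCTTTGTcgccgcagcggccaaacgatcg
Both strands were searched for CTTTGA and CTTTGT (Tcf/Lef), ACAATG (Sox), TAATTA (LIM homeodomain), GGAAAN (NFAT) and ACCACCC (Gli), which do not contain one another. The Tcf7l1 window held CTTTGT from 28 bases before the start, a motif in 16.5% of 32851 RefSeq promoters of this length. The Lgr6 window held ACAATG, found in 10.7% of promoters, and GGAAAN on the opposite strand, found in 55.5%. The Lhx2 window held GGAAAN, and the Fgf18 window none of the 6. A match here is a description of the letters and not a binding site.

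Krt15 encodes a type I keratin of basal-layer and bulge keratinocytes. In WT skin it was at 1451, 1174, 1939 and 1836 CPM without UVB and at 858, 1197, 1114 and 918 CPM after UVB. In KO skin it was at 928, 1668, 1518 and 1838 CPM without UVB and at 640, 513, 549 and 555 CPM after it. WT control 2 lay just below the highest WT UVB library, while the KO groups did not overlap. Krt15 fell by 0.65 ± 0.20 on the log2 scale (± SE) in WT (adjusted p = 0.0340, edgeR quasi-likelihood test with Benjamini-Hochberg adjustment, as for all adjusted p-values below unless another tool is named) and by 1.40 ± 0.20 in KO skin (adjusted p = 0.000200). The WT call was lost without WT control 1 (adjusted p = 0.0568), 3 (0.0907) or 4 (0.0878) and without WT UVB 1 (0.0949), 3 (0.0648) or 4 (0.102), whereas the KO call held in all 18 alternatives.

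Cd34 encodes a surface sialomucin that marks mouse bulge cells in sorting. In WT skin it was at 485, 505, 585 and 416 CPM without UVB and at 406, 313, 419 and 390 CPM after UVB. In KO skin it was at 537, 483, 443 and 468 CPM without UVB and at 235, 337, 349 and 491 CPM after UVB. Both pairs of groups overlapped, in KO skin because KO UVB 4 lay among the controls. The UVB estimates were -0.38 ± 0.17 in WT (adjusted p = 0.138) and -0.45 ± 0.17 in KO (0.0580), and neither passed the test. Without KO UVB 4 Cd34 fell by 0.64 on the log2 scale in KO skin (adjusted p = 0.00398). It was also called lower in KO by DESeq2 (adjusted p = 0.0313), by limma voom (0.0106) and with library totals as the scale (0.0278). Over all genes DESeq2, limma voom and library totals called 6079, 7508 and 5799 in KO skin, and the main fit 5666. In WT skin Cd34 was called lower in 1 of 17 alternatives, the fit of the 2 WT groups alone (-0.37, adjusted p = 0.04996). Of 10 endothelial genes, another source of Cd34 RNA, 0 passed the test in either genotype, and 0 in WT and 1 in KO had an unadjusted p under 0.05. They summed to 541 to 649 CPM in WT control, 469 to 588 in WT UVB, 501 to 622 in KO control and 506 to 668 in KO UVB libraries. Of 10 dermal fibroblast genes 0 were called lower in WT and 2 in KO, and of 7 mast cell genes 1 and 0. The fibroblast sum was 29605 to 63544 CPM in WT control, 42261 to 46310.5 in WT UVB, 56042 to 59930.2 in KO control and 32300.4 to 42175 in KO UVB libraries. The mast cell sum was 238 to 323, 202 to 296, 187 to 483 and 206 to 342 CPM in the same order. The fibroblast sum chiefly follows the collagens Col1a1, Col1a2 and Col3a1, at 12821, 13084 and 13820 CPM in WT UVB libraries. Between KO and WT with UVB, 5 of the 10 fibroblast genes, these 3 among them, had estimates below 0, and 0 of 10 passed the test. The median was 0.19, and 3 had an unadjusted p under 0.05, all estimated higher in KO. These were Pdgfra (0.51 ± 0.16), Dpt (0.56 ± 0.23) and Ly6a (0.52 ± 0.23). The part of endothelial cells, fibroblasts and mast cells in the Cd34 level was not tested.

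Lgr5 and Lgr6 encode receptors for R-spondins, secreted proteins that strengthen Wnt signalling. Lgr5 was at 31.1, 17.5, 36.5 and 25.3 CPM in WT control and at 19.1, 29.8, 25.0 and 30.3 CPM in WT UVB libraries. It was at 16.6, 25.5, 24.7 and 33.3 CPM in KO control and at 14.5, 14.4, 15.4 and 13.8 CPM in KO UVB libraries. The WT groups ran through each other, and the KO UVB libraries lay close together below every KO control. Lgr5 fell by 0.78 ± 0.22 on the log2 scale in KO skin (adjusted p = 0.0139), a call lost without KO control 4 (-0.61, adjusted p = 0.0521) and without KO UVB 3 and 4 together (-0.78, 0.0579). In WT skin the Lgr5 estimate was -0.09 ± 0.22 (adjusted p = 0.807), with a 95% interval from -0.55 to 0.37.

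Lgr6 was at 39.9, 25.7, 47.1 and 41.1 CPM in WT control and at 23.2, 38.8, 40.1 and 36.3 CPM in WT UVB libraries. It was at 39.5, 59.3, 66.3 and 55.4 CPM in KO control and at 36.1, 28.01, 24.0 and 18.7 CPM in KO UVB libraries. Again the WT groups overlapped and the KO groups did not. Lgr6 fell by 1.05 ± 0.23 on the log2 scale in KO skin (adjusted p = 0.00332), 2.07-fold, and the call held in all 18 alternatives. In WT skin the estimate was -0.15 ± 0.23 (adjusted p = 0.673), with a 95% interval from -0.64 to 0.33. Lgr6 was also the member with the highest estimate between genotypes before UVB, 0.52 ± 0.23 higher in KO (unadjusted p = 0.0376, adjusted p = 0.406), a difference that did not pass the test.

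Among the transcription factors, Lhx2, a LIM homeodomain factor of follicle progenitors, was at 21.1, 15.4, 26.4 and 21.7 CPM in WT control and at 10.3, 18.2, 18.4 and 16.8 CPM in WT UVB libraries. In KO skin Lhx2 was at 15.6, 26.4, 20.9 and 21.6 CPM without UVB and at 15.2, 9.98, 11.3 and 6.83 CPM after it. The WT groups overlapped, and in KO skin the lowest control lay just above the highest UVB library. Lhx2 fell by 0.97 ± 0.24 on the log2 scale in KO skin (adjusted p = 0.00715), 1.95-fold, while the WT estimate was -0.41 ± 0.24 (0.240). The KO call was lost when KO UVB 3 and 4 were left out together (adjusted p = 0.0535).

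Sox9, which specifies the outer root sheath and its stem cells, was at 48.3, 31.6, 42.0 and 43.2 CPM in WT control and at 29.4, 33.1, 32.1 and 36.2 CPM in WT UVB libraries. It was at 14.6, 43.4, 34.5 and 33.3 CPM in KO control and at 28.6, 25.3, 27.0 and 17.7 CPM in KO UVB libraries. KO control 1 held the lowest Sox9 level of all 16 libraries. The Sox9 estimates were -0.34 ± 0.24 in WT (adjusted p = 0.348) and -0.35 ± 0.24 in KO skin (0.283), neither of which passed the test. Without KO control 1 Sox9 fell by 0.58 on the log2 scale in KO skin (adjusted p = 0.0163), so that library decided the call.

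Nfatc1, a factor that holds bulge cells in quiescence, was at 72.6, 65.96, 62.6 and 74.7 CPM in WT control and at 65.6, 66.6, 75.3 and 67.1 CPM in WT UVB libraries. In KO skin it was at 62.5, 88.5, 78.5 and 76.6 CPM without UVB and at 65.5, 64.1, 56.8 and 50.8 CPM after it. Both pairs of groups overlapped, in KO skin through KO control 1. Nfatc1 fell by 0.37 ± 0.11 on the log2 scale in KO skin (adjusted p = 0.0146) and was estimated at -0.01 ± 0.11 in WT (0.971), where the 95% interval ran from -0.23 to 0.22. The KO call was lost without KO control 2 (adjusted p = 0.0572) or KO UVB 4 (0.0601), in a fit of the 2 KO groups alone (0.0821), and without KO UVB 3 and 4 together (-0.24, 0.140).

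Tcf7l1, a mostly repressive Tcf/Lef factor of bulge cells, was at 34.6, 33.2, 28.7 and 33.0 CPM in WT control and at 28.4, 22.96, 24.1 and 25.7 CPM in WT UVB libraries. In KO skin it was at 30.6, 40.9, 34.5 and 33.6 CPM without UVB and at 23.2, 29.2, 29.2 and 32.7 CPM after it. The WT groups did not overlap, though by a narrow gap, and the KO groups did. Tcf7l1 fell by 0.35 ± 0.11 on the log2 scale in WT skin (adjusted p = 0.0376), and its KO estimate was -0.29 ± 0.11 (0.0584). The WT call was lost without WT control 1, 2 or 4 or WT UVB 2, 3 or 4 (adjusted p = 0.0766 to 0.120). The KO estimate passed the test in 6 of 18 alternatives, among them DESeq2 (adjusted p = 0.0450) and limma voom (0.0209). Over all genes DESeq2 and limma voom called 6079 and 7508 in KO skin, and the main fit 5666.

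Gli1 is both an effector and a transcriptional target of hedgehog signalling. It was at 22.2, 14.8, 24.3 and 17.2 CPM in WT control and at 9.78, 11.2, 14.1 and 13.9 CPM in WT UVB libraries. It was at 18.9, 15.2, 17.6 and 12.5 CPM in KO control and at 10.4, 10.3, 7.89 and 8.43 CPM in KO UVB libraries. In both genotypes every UVB library lay below every control. Gli1 fell by 0.68 ± 0.17 on the log2 scale in WT (adjusted p = 0.0132) and by 0.80 ± 0.18 in KO skin (0.00327), 1.60-fold and 1.74-fold. The WT call was lost without WT control 1 (adjusted p = 0.0514) or WT UVB 2 (0.0506), and the KO call held in all 18 alternatives.

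Fgf18, the secreted factor that bulge cells make to hold telogen, had the fewest reads of the 10 genes, from 67 to 263 a library. It was at 5.72, 4.15, 5.99 and 7.26 CPM in WT control and at 4.94, 5.88, 5.09 and 5.11 CPM in WT UVB libraries. It was at 4.86, 11.1, 6.60 and 7.27 CPM in KO control and at 5.77, 5.13, 4.43 and 4.42 CPM in KO UVB libraries. KO control 2 stood well above the others, and both pairs of groups overlapped. Fgf18 fell by 0.60 ± 0.22 on the log2 scale in KO skin (adjusted p = 0.0434) and was estimated at -0.14 ± 0.22 in WT (0.681). The KO call was lost in 10 of 18 alternatives (adjusted p from 0.0556 to 0.218), with the estimate moving to -0.34 without KO control 2 (0.201). Other losses came without KO control 3 (0.0556) or 4 (0.0715), KO UVB 2 (0.0796), 3 (0.105) or 4 (0.0986), without KO UVB 3 and 4 together (-0.45, 0.218) and in a fit of the KO groups alone (0.121).

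**Figure D2:**
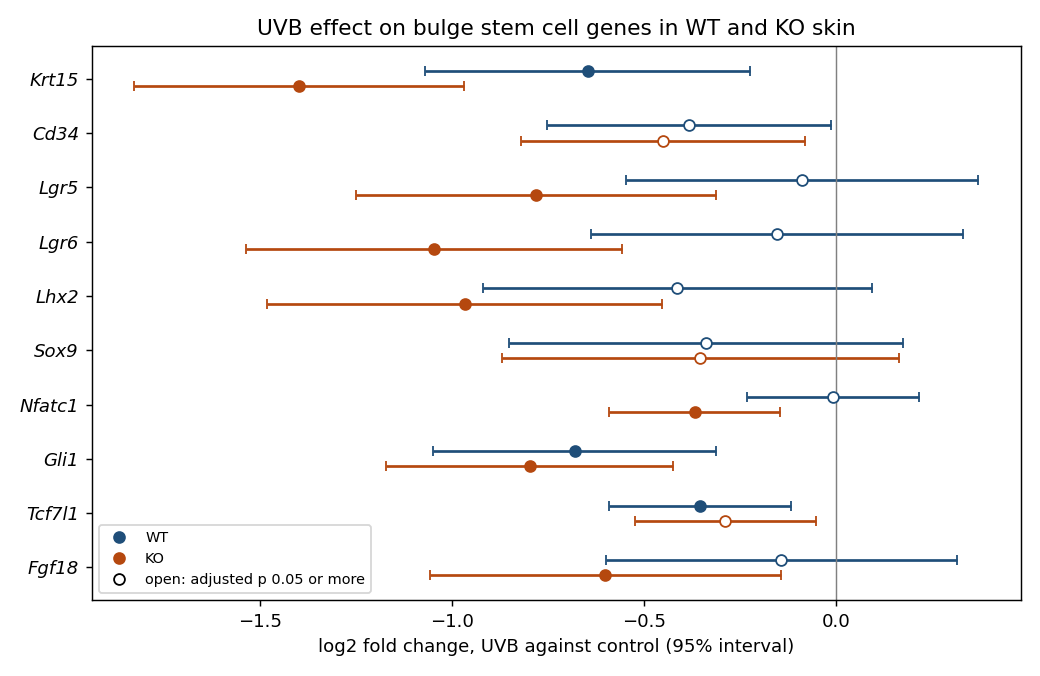
Log2 fold change of UVB against control for the 10 genes in WT and KO skin, with 95% intervals, filled where the adjusted p was under 0.05. All 20 estimates lie below 0, with Krt15 at -0.65 in WT and -1.40 in KO and Nfatc1 at -0.01 in WT.

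Read against the background, 3 of 10 members were called lower in WT skin, where 8.60% of the 17531 genes tested were called lower, 10.2% higher and 18.8% either way. In KO skin 7 of 10 were called lower, where 15.1% of the tested genes were called lower, 17.2% higher and 32.3% either way. The groups did not overlap for 2 of 10 members in WT (Gli1 and Tcf7l1), against 13.1% of all genes with every UVB library lower. They did not overlap for 5 of 10 in KO skin (Krt15, Lgr5, Lgr6, Lhx2 and Gli1), against 11.5% of all genes. The members' median log2 fold change was -0.35 in WT and -0.69 in KO skin, beside -0.03 and -0.02 over all genes tested. With library totals in place of TMM, the all-gene calls shifted towards lower values, from 1782 higher of 3290 called to 1281 of 3744 in WT and from 3011 of 5666 to 2350 of 5799 in KO skin.

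The anagen genes moved with the same comparisons, with 21 of 22 called lower in WT (median -5.25) and 20 of 22 in KO skin (median -4.09). Markers of other skin compartments moved too. Proliferation genes summed to 231 to 353 CPM in WT control, 455 to 484 in WT UVB, 209 to 321 in KO control and 379 to 631 in KO UVB libraries, with 8 of 10 called higher in WT and 10 of 10 in KO. Suprabasal keratinocyte genes summed to 6446 to 8347 CPM in WT control, 24758 to 32676 in WT UVB, 7664 to 12615 in KO control and 16397 to 52213 in KO UVB libraries, with 7 of 8 and 6 of 8 called higher. Of 9 basal keratinocyte genes, 2 were called higher in each genotype and 1 lower in KO. Of 7 Schwann cell genes, 6 were called lower in each genotype, from sums of 370 to 462 CPM in WT control to 203 to 233 in WT UVB and from 226 to 345 in KO control to 139.5 to 244 in KO UVB libraries. Of 8 skeletal muscle genes 1 was called lower in WT and 5 in KO. Of 7 T cell genes, 4 were called lower and 1 higher in each genotype (median -1.12 in WT and -0.95 in KO). Their sums were 219 to 287 CPM in WT control, 199 to 249 in WT UVB, 193 to 296 in KO control and 208 to 294 in KO UVB libraries, ranges that overlapped. Thy1 alone was at 177 ± 19.1 CPM in WT UVB and 208 ± 35.0 in KO UVB libraries. The sums thus chiefly follow Thy1 and not the genes called lower. Of 8 sebaceous gland genes, 3 were called higher and 1 lower in WT, and 4 higher in KO. Of 6 adipocyte genes 0 were called in either genotype (median -0.48 in WT and -0.29 in KO). Of 6 macrophage genes 0 were called either, with a median of -0.54 in WT and 0.37 in KO. Between KO and WT with UVB the macrophage median was 0.76, with 0 of 6 passing the test and 5 with an unadjusted p under 0.05. The part of these shifts in tissue makeup in the members' fall was not tested.

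**Figure D3:**
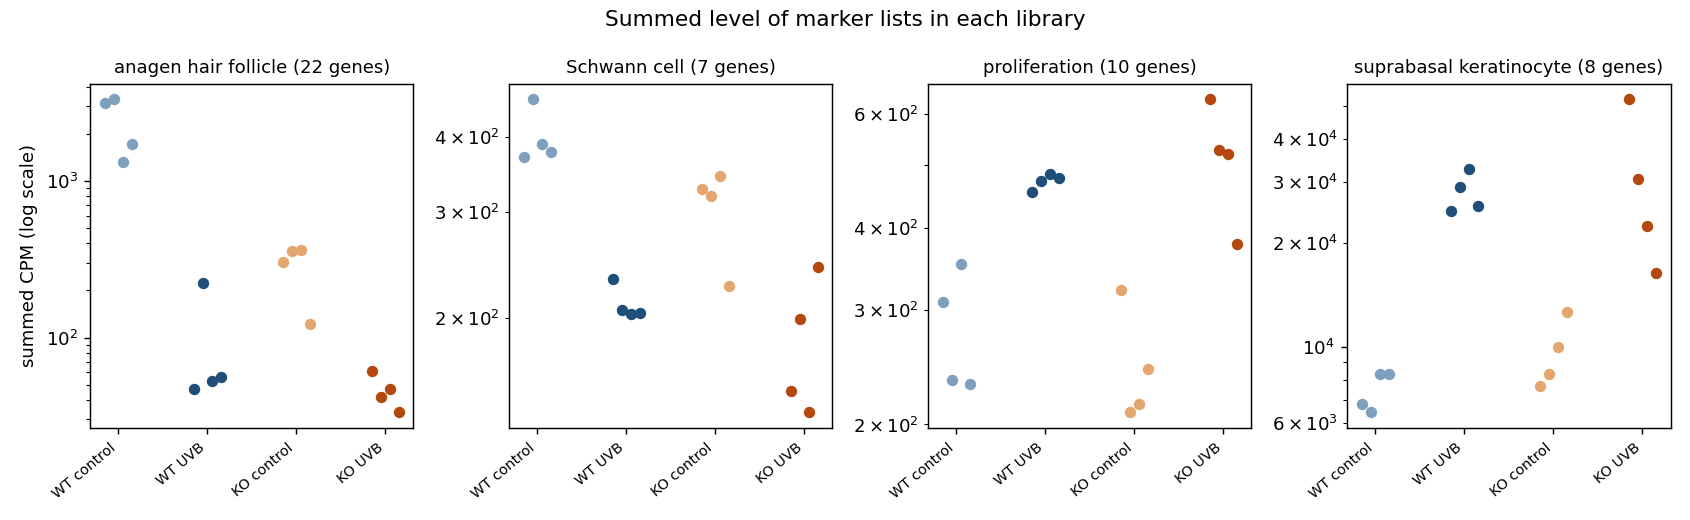
Summed CPM (log axis) of anagen hair follicle, Schwann cell, proliferation and suprabasal keratinocyte genes in each library of the 4 groups. The anagen sum of every WT control library (1311 to 3318 CPM) lies above that of every other library (33.4 to 360 CPM), and the suprabasal sum of every UVB library lies above that of every control.

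Between the genotypes without UVB, 0 of 10 members passed edgeR's test, beside 1.69% of all genes tested, and 1 had an unadjusted p under 0.05 (Lgr6, above). DESeq2 and limma voom also called 0. The estimates ran from -0.39 ± 0.24 for Sox9 to 0.52 ± 0.23 for Lgr6, and their median was -0.02. Krt15 was estimated at -0.10 ± 0.20 (95% interval from -0.53 to 0.32), Cd34 at -0.04 ± 0.17 (-0.41 to 0.32) and Lhx2 at -0.00308 ± 0.24 (-0.51 to 0.50). In the same comparison 17 of 22 anagen genes were called lower in KO, where 1.28% of all genes were, with a median of -3.10 on the log2 scale. The WT control libraries thus held far more RNA of the growing follicle than the KO controls. The levels of the 10 members were not shown to differ there, with intervals too wide to show that they were equal.

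After UVB, 0 of 10 members passed edgeR's test between KO and WT skin, beside 0.856% of all genes, and 4 had an unadjusted p under 0.05. These were Krt15 (-0.86 ± 0.20, adjusted p = 0.0572), Lgr5 (-0.84 ± 0.22, 0.0797), Lhx2 (-0.56 ± 0.24, 0.271) and Gli1 (-0.41 ± 0.18, 0.269). Every KO UVB library lay below every WT UVB library for 4 of 10 members (Krt15, Lgr5, Sox9 and Nfatc1), against 3.89% of all genes. Krt15 and Lgr5 lay above the threshold here. They were also not called in 13 and 15 of 18 alternatives, with adjusted p up to 0.184 and 0.220. DESeq2 called both lower (adjusted p = 0.00210 and 0.0128), as did limma voom (0.00363 and 0.0309) and edgeR on the 2 UVB groups alone (0.0383 and 0.0485). Without KO UVB 1 edgeR called Krt15 (adjusted p = 0.0399), and without WT UVB 2 its adjusted p was 0.184.

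The difference between the UVB effects in KO and WT skin was tested directly as an interaction. No member passed (0 of 10, beside 0.0228% of all genes), in the 16-library fit or in any of 25 alternatives, DESeq2 and limma voom included, and 4 had an unadjusted p under 0.05. The KO effect was lower than the WT effect by 0.89 ± 0.32 for Lgr6 (adjusted p = 0.271), 0.75 ± 0.28 for Krt15 (0.284), 0.69 ± 0.31 for Lgr5 (0.363) and 0.36 ± 0.15 for Nfatc1 (0.326), in log2 units. For Gli1 the difference was -0.12 ± 0.25 (95% interval from -0.64 to 0.41), and for Tcf7l1 0.07 ± 0.16 (-0.27 to 0.40). The count of 7 called in KO against 3 in WT is therefore not a shown difference between the genotypes.

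The pathways around the members were read from lists of other genes, beside the 8.60% (WT) and 15.1% (KO) of all genes called lower and the all-gene medians of -0.03 and -0.02. In the hedgehog pathway, 4 of 14 genes other than Gli1 were called lower in WT and 6 of 14 in KO skin, and 0 higher (median -0.23 in WT and -0.32 in KO). Ihh, with 41 reads in total, was under the filter. Ptch1, the receptor that is itself a hedgehog target, fell from 51.0 ± 4.72 to 34.0 ± 4.83 CPM in WT (-0.59 ± 0.13, adjusted p = 0.00518) and from 48.2 ± 7.45 to 26.9 ± 3.41 in KO skin (-0.84 ± 0.13, 0.000288). The ligand Shh fell in WT from 1.04 ± 0.315 to 0.313 ± 0.274 CPM (adjusted p = 0.0482) and was at 0.443 ± 0.289 and 0.289 ± 0.185 CPM in KO control and KO UVB (0.468). Shh had at most 28 reads in a library and 170 in total. The effector Gli2 fell in both genotypes (-0.54 ± 0.13, adjusted p = 0.0105, and -0.46 ± 0.13, 0.0165), as did Disp1, which releases the ligand (-0.51 ± 0.16, 0.0339, and -0.60 ± 0.16, 0.00899). Cdon, a hedgehog co-receptor, fell in KO from 87.1 ± 7.96 to 48.4 ± 11.9 CPM (adjusted p = 0.000847), and Gli3 fell there too (-0.50 ± 0.10, 0.00239).

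Of the Lgr and R-spondin genes other than Lgr5 and Lgr6, 0 of 7 passed the test in WT skin and 4 of 7 were called lower in KO (median -0.18 in WT and -0.57 in KO). In WT 2 had an unadjusted p under 0.05, in opposite directions: Rspo1 at -0.60 ± 0.23 and Rspo4 at 0.55 ± 0.20. The ligand Rspo2 fell in KO from 0.704 ± 0.146 to 0.178 ± 0.136 CPM (-1.90 ± 0.45, adjusted p = 0.00494), and Rspo3 from 4.56 ± 1.49 to 2.52 ± 1.02 CPM (-0.85 ± 0.27, 0.0261). Rspo2 was near the floor, with at most 16 reads in a library and 120 in total. The receptor Lgr4 (-0.48 ± 0.15, adjusted p = 0.0222) and Znrf3, a ubiquitin ligase that removes Wnt receptors (-0.57 ± 0.19, 0.0307), also fell in KO. Rspo4, named here after its values were seen, was the 1 gene of the 7 with an estimate above 0 in KO (0.53 ± 0.20, adjusted p = 0.0570).

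**Figure D4:**
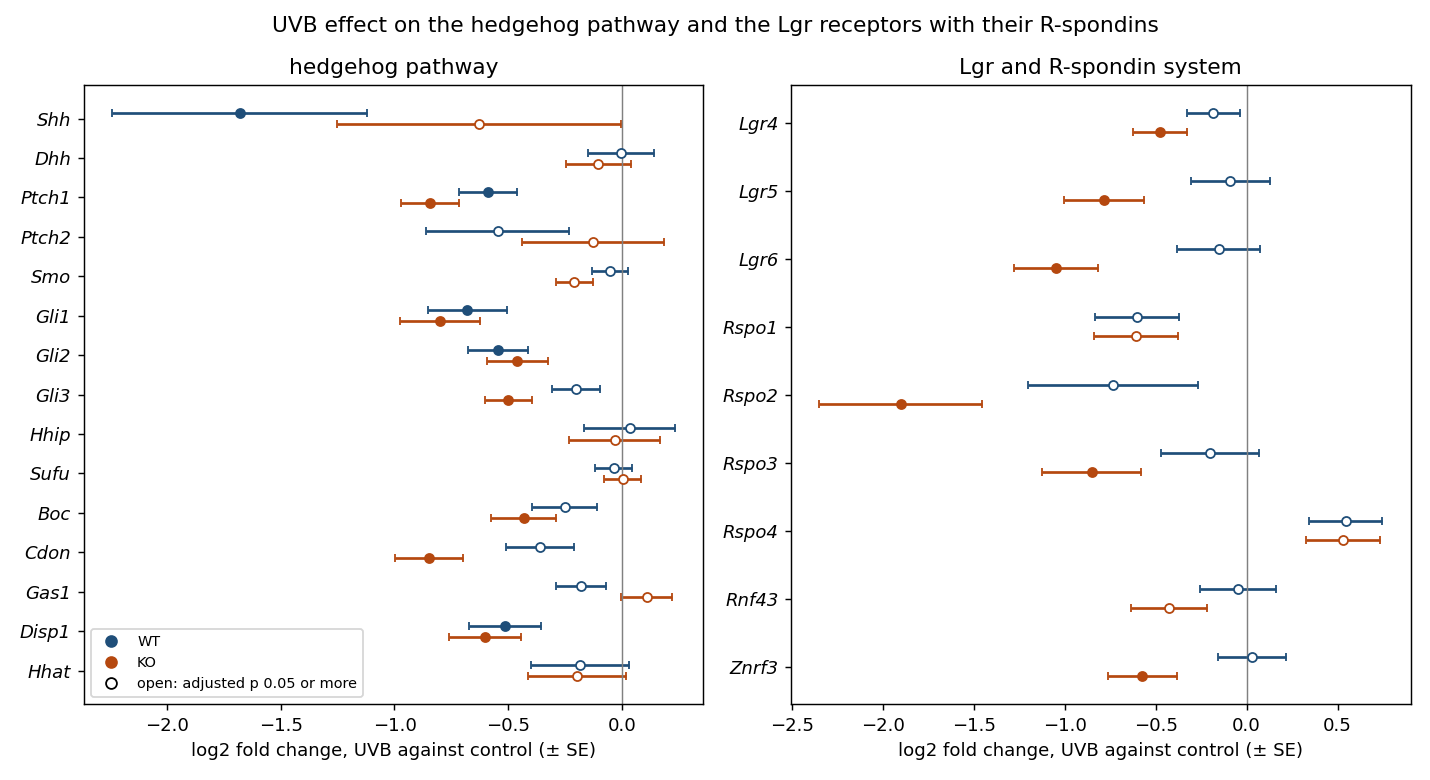
Log2 fold change of UVB against control (± SE) in WT and KO skin for the hedgehog genes and for the Lgr receptors with R-spondins and their ubiquitin ligases, filled where the adjusted p was under 0.05. Ptch1, Gli1, Gli2 and Disp1 are filled in both genotypes, and Lgr4, Lgr5, Lgr6, Rspo2, Rspo3 and Znrf3 in KO.

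Of 9 Tcf/Lef factors and partners other than Tcf7l1, 3 were called lower in WT and 4 in KO skin, and 0 higher (median -0.25 in WT and -0.29 in KO). Lef1, an activating factor of hair matrix and germ, fell from 5.38 ± 0.864 to 2.02 ± 0.581 CPM in WT (adjusted p = 0.00166) and from 2.82 ± 0.903 to 1.58 ± 0.417 in KO skin (0.0284). Tle2, a co-repressor, fell in both (-0.48 ± 0.10, adjusted p = 0.00462, and -0.40 ± 0.10, 0.00892), and so did Tcf7l2 (-0.50 ± 0.15, 0.0260, and -0.41 ± 0.15, 0.0432). Axin2, a Wnt target, fell in KO from 49.6 ± 12.5 to 30.0 ± 3.70 CPM (adjusted p = 0.00325) and was estimated at -0.25 ± 0.16 in WT (0.299).

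Among 19 FGF and BMP genes other than Fgf18, 3 were called lower in WT and 6 in KO skin, and 0 higher (median -0.18 in WT and -0.18 in KO). Bmp4, a BMP ligand of the telogen dermis and follicle, fell in both genotypes (-0.55 ± 0.18, adjusted p = 0.0400, and -0.95 ± 0.18, 0.00117), and Bmp6, made by bulge cells, fell in KO (-0.47 ± 0.10, 0.00269). Of the FGF receptors, Fgfr1 fell in WT (-0.52 ± 0.12, adjusted p = 0.00920), and Fgfr2 (-0.91 ± 0.18, 0.00163) and Fgfr4 (-0.88 ± 0.22, 0.00597) in KO. Fgf7, a ligand made by the dermis, fell in WT (-0.64 ± 0.16, adjusted p = 0.0138) and was at -0.11 ± 0.16 in KO (0.649).

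Of 17 other bulge genes, 2 were called lower in WT (Sfrp1 and Foxp1) and 5 in KO skin, and 0 higher. Their median was -0.05 in WT, near the -0.03 of all genes, and -0.33 in KO, beside -0.02, and the WT count was near the 8.60% of all genes called lower. Sfrp1, a secreted Wnt inhibitor, was at 130 ± 36.8 CPM in WT control, 57.3 ± 8.67 in WT UVB (adjusted p = 0.000758), 76.7 ± 14.6 in KO control libraries and 58.3 ± 10.9 in KO UVB (0.130). Foxp1, a factor of bulge quiescence, fell in WT (-0.44 ± 0.14, adjusted p = 0.0386). In KO Dkk3 (-0.66 ± 0.15, adjusted p = 0.00360), Tgfb2 (-0.69 ± 0.18, 0.0103), Nfib (-0.39 ± 0.11, 0.0142), Ptn (-0.40 ± 0.13, 0.0287) and Tbx1 (-0.41 ± 0.15, 0.0441) fell. Tgfb2 was also higher in KO than in WT skin without UVB (53.8 ± 14.5 against 31.1 ± 4.21 CPM, adjusted p = 0.0404), and Ptn lower in KO with UVB (35.7 ± 5.94 against 53.4 ± 5.22, 0.0449). Of 7 genes of the upper follicle and isthmus, 0 were called lower in either genotype, a count too small to set apart from the 8.60% and 15.1% of all genes. Prdm1 rose in WT (0.67 ± 0.15, adjusted p = 0.00523) and Prdm1 (0.55 ± 0.15, 0.00972), Krt79 (0.97 ± 0.24, 0.00609) and Cst6 (0.47 ± 0.16, 0.0309) rose in KO skin.

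Within groups, the members' deviations from their group means were compared over the 16 libraries, for all 45 pairs. Lgr6 and Lhx2 deviated together most closely (Pearson r = 0.92, permutation p = 0.00034, adjusted over the 45 pairs 0.00990, and Spearman rho = 0.79, permutation p = 0.00260, adjusted 0.0823). Without the 2 libraries farthest from the median Lgr6 deviation r was 0.89. For Sox9 and Nfatc1 r was 0.80 (permutation p = 0.00553, adjusted 0.0311) and rho 0.69 (p = 0.00885, adjusted 0.0823). Without the 2 libraries farthest from the median Sox9 deviation their r was 0.58. Of the 45 pairs 15 had an adjusted permutation p under 0.05 for r and 0 for rho, and none of the 15 included Cd34, Gli1 or Tcf7l1. Cd34 deviated against the 7 genes other than Gli1 and Tcf7l1, with r from -0.60 to -0.13, none of which passed the adjusted test. The deviations had shared libraries: KO control 1 and WT UVB 1 were each lowest of their group in 8 of the 10 genes, WT control 2 in 7 and KO UVB 4 in 6. Within KO UVB the suprabasal sum ranged from 16397 CPM in library 4 to 52213 in library 1. Its part in the deviations was not tested. The promoter windows of Lgr6 and Lhx2, printed above, shared 1 of the 6 motifs, GGAAAN, found in 55.5% of promoters. The Cd34 window, not printed, also held GGAAAN, and Cd34 had r of -0.56 with Lgr6 and -0.58 with Lhx2. Without the 2 libraries farthest from the median Cd34 deviation these were -0.27 and -0.16, and rho over all libraries was -0.42 and -0.29. A part of the motif in the shared deviations was not tested.

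**Figure D5:**
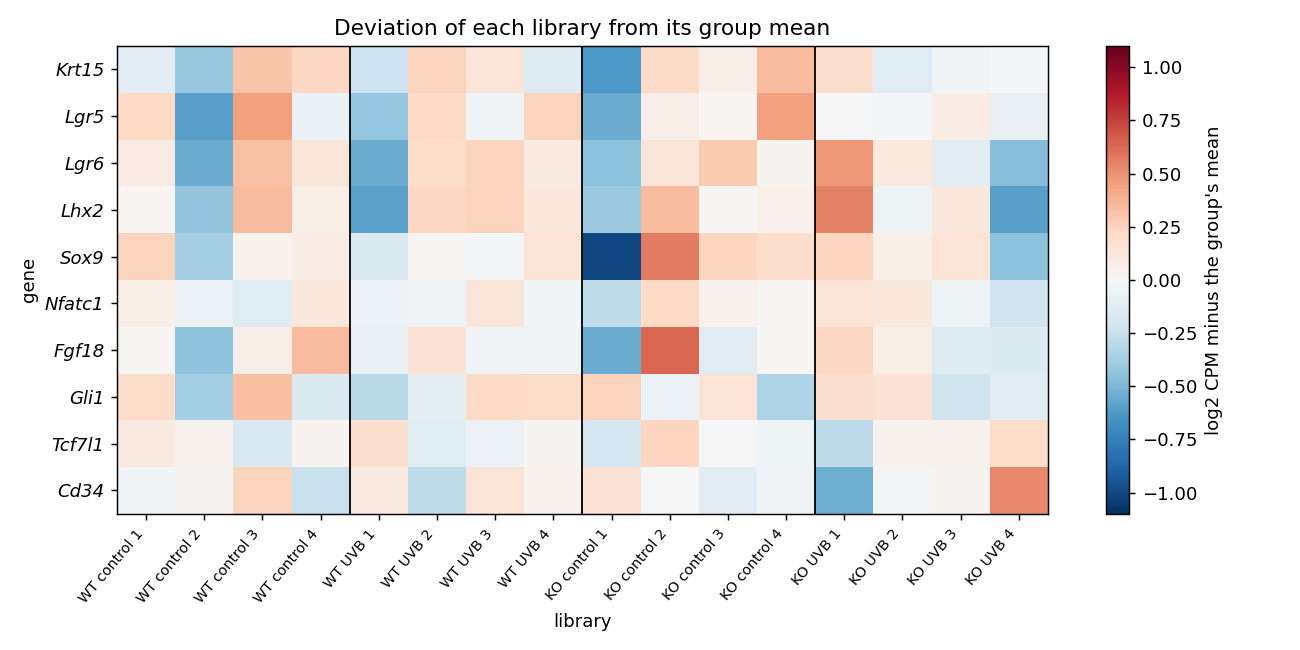
Deviation of each library's log2 CPM from its group mean (colour) for the 10 genes (rows) in the 16 libraries (columns). KO control 1 is low in 8 genes of its group, and Cd34 in KO UVB 1 and 4 deviates opposite to Lgr6 and Lhx2.

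Genes outside the set with the most similar pattern were ranked by Pearson r of log2 CPM over the 16 libraries, among 13036 genes, as a description. For Krt15 these were Kif21a (r = 0.96), Slc7a6 (0.96) and Cbs (0.96), and for Cd34 Lpar1 (0.92), St6galnac6 (0.92) and Entpd2 (0.91). Lgr5 was followed by Ahr (0.92), Pak3 (0.89) and Zfp329 (0.89), and Lgr6 by Plxna3 (0.92), Ptprs (0.91) and Sh3pxd2a (0.91). For Lhx2 they were Mapkbp1 (0.94), Col4a6 (0.91) and Zbtb39 (0.90), and for Sox9 Foxc1 (0.95), itself on the list of other bulge genes, Arid2 (0.93) and Cx3cl1 (0.92). Nfatc1 was most like Hivep1 (0.90), Smad5 (0.89) and Znrf3 (0.88), and Gli1 like Rrnad1 (0.91), Pofut1 (0.90) and Kank4 (0.89). For Tcf7l1 they were Gnaq (0.93), Radil (0.93) and Pacs1 (0.92), and for Fgf18 Cbarp (0.90), Spry1 (0.87) and Zfp362 (0.86). Over deviations from group means the same leading partners had r of 0.94 for Sox9 with Foxc1, 0.94 for Cd34 with Lpar1, 0.80 for Krt15 with Kif21a and 0.64 for Gli1 with Rrnad1.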

How the data were processed

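Whole dorsal skin RNA was sequenced in 16 libraries. The deposited read counts per gene were made by the authors with STAR on GRCm39, per the submitters' processing notes; its version was not given in the sources used here. Counts of the reverse strand (column 4 of each library's table) were used, since 95.7% of the reads counted on either strand lay there, and the kit was directional, per the labels' protocols. Lines that name no gene held 19.6% to 30.1% of a library's reads and stayed out. Reads in genes numbered 15644375 to 23200649 a library, and no 2 libraries of a group agreed within sampling noise. A combined table was not used (17 of its columns carry no label).

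Genes passing filterByExpr (17531) were fitted with edgeR 4.0.16 in R 4.3.3 (TMM, robust quasi-likelihood, 1 model of the 4 groups, 5 contrasts). Adjusted p-values are Benjamini-Hochberg over all genes tested, and a gene was called at 0.05. SE is the fold change over the root of F. DESeq2 1.42.0, limma 3.58.1 voom with quality weights, other scalings and filters, unstranded counts, a replicate block and leaving out libraries were alternatives. The fit was tested on simulated data. Log2 CPM used a prior count of 2. Exon lengths came from GENCODE vM21 (GRCm38, an earlier build) by gene ID. Named genes were the members, up to 4 called genes a pathway list and contrast with the smallest adjusted p, and for each member the 3 genes with the highest r where the mean count reached 50. Tbx1, Rspo1, Rspo4 and single genes of the cell type marker lists were named beyond this rule. Members and lists were chosen with earlier results of these data known. Sequences are from RefSeq.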

Additional observations from a re-analysis of the deposited data

Results flagged for a closer look

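In 1 of the 40 sets of 4 libraries tested (10 genes in 4 groups), 1 library stood apart by Dixon's criterion for the gap to its nearest neighbour, where chance flags about 1 in 20. Nfatc1 was at 75.3 CPM in WT UVB library 3, above 65.6, 66.6 and 67.1 CPM in the other libraries of that group.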

How the results depend on the processing

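The count of members called lower in WT skin after UVB, 3, ran from 0 to 4 over its 17 alternatives. It became 1 with the replicate block and 0 to 2 on leaving out 1 library. The count in KO skin, 7, ran from 5 to 9 over its 18 alternatives. Between KO and WT with UVB the count of 0 became 1 with library totals, 2 in a fit of the UVB groups alone, 2 with DESeq2, 2 with limma voom, and 0 to 1 on leaving out 1 library. Between the genotypes without UVB and for the interaction it was 0 in all alternatives run. No pairing of the libraries by the titles' replicate numbers was seen. Over 24 same-numbered pairs from different groups r of the deviations ran from -0.40 to 0.22, and 3 were over 0.1. Of 16 libraries, 4 correlated best with their own number. Such correlations cannot exclude a pairing. With the replicate block the WT calls of Krt15 (adjusted p = 0.0509) and Tcf7l1 (0.0630) and the KO call of Fgf18 (0.0787) were lost, and the count over all genes went from 150 to 77 between KO and WT with UVB and from 4 to 7 for the interaction.

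Estimates near 0 changed sign. In WT after UVB Nfatc1 became 0.00123 with a mean count of at least 100, 0.00929 with unstranded counts and 0.00751 in a fit of the 2 groups alone. Lhx2 between the genotypes without UVB became 0.00189 in a fit of the 2 groups alone and 0.0195 with limma voom. Without KO UVB 3 and 4 Fgf18 became 0.0560 between KO and WT with UVB, and the interaction became 0.117 for Sox9, 0.0475 for Gli1 and -0.0578 for Tcf7l1. With the replicate block the Sox9 interaction became 0.0200. On leaving out 1 library the sign also changed in WT for Lgr5 (-0.25 to 0.0857), Lgr6 (-0.30 to 0.0194) and Nfatc1 (-0.0417 to 0.0348). It changed between the genotypes without UVB for Krt15 (-0.23 to 0.0699), Cd34 (-0.12 to 0.0413), Lgr5 (-0.31 to 0.0143) and Lhx2 (-0.13 to 0.12), and with UVB for Cd34 (-0.31 to 0.0246). For the interaction it changed for Cd34 (-0.27 to 0.0682), Sox9 (-0.26 to 0.18) and Tcf7l1 (-0.00311 to 0.15). The cause of these changes was not tested.

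Counts over all genes moved by more than 1.5 times as follows. In WT after UVB 3290 became 5100 with limma voom, 2039 without WT control 1 and 2147 without WT UVB 3, and in KO 5666 became 3506 in a fit of the KO groups alone. Between the genotypes without UVB 297 became 93 with a mean count of at least 100, 452 with DESeq2, 590.0 with limma voom and, at the lowest, 161 without WT control 2. With UVB 150 became 79 in a fit of those groups, 658 with DESeq2, 1094 with limma voom, 313 without KO UVB 3 and 4, and from 59 (without WT UVB 2) to 487 (without KO UVB 4). For the interaction 4 became 22 without the filter, 210 with DESeq2, 438 with limma voom, 67 without KO UVB 3 and 4, and from 2 (without KO control 4) to 110 (without KO UVB 4).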
